A study of Mus musculus with 32 samples.

Results

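Lipoprotein receptors and proteins of lipid transport were followed through the differentiation of UB/OC-1, a mouse cell line that is conditionally immortal and was made from the developing organ of Corti, where the hair cells of the cochlea lie. The genes were the receptors Vldlr and Lrp1, the phospholipid transfer protein Pltp, the lipoprotein lipase Lpl and the carrier proteins Apoe and Apod. All probe sets that the platform annotation gives to these symbols were taken, which came to 10 of 13179 probe sets and 6 of 6137 named genes. The genes were chosen by the measured differences of the later days from day 0 in these same arrays, such as those of Pltp early and Vldlr late, so these differences are given as a description, with no p-value for a member, and p-values are given for the comparisons within the days at 39 °C.

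Cells at 33 °C (day 0) are undifferentiated by their labels, and cells kept at 39 °C are under conditions that the labels call differentiating. In experiment A cultures were taken on 12 days, each day from 0 to 9 and then days 11 and 14, and in experiment B on 4, namely days 0, 2, 4 and 9. Total RNA of each culture was put on oligonucleotide arrays of a first and a second design, a and b, 16 arrays each and 32 samples in all. On each design the undifferentiated phase, day 0, thus has 2 arrays. Days 1 to 3 are called early (4 arrays), days 4 to 7 are called middle (5 arrays) and days 8 to 14 are called late (5 arrays). All groups are of this 1 line, which comes from a mouse with a temperature-sensitive large T antigen, an immortalising gene that is active at the lower temperature, and the labels name no added agent. Day 0 differs from all other days in both temperature and time, and these cannot be told apart.

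Lipoproteins carry cholesterol, triglycerides and phospholipids between cells in particles that are held together by apolipoproteins. Lipoprotein lipase releases fatty acids from the triglycerides, phospholipid transfer protein moves phospholipid between particles, and receptors of the LDL receptor family bind the apolipoproteins and take particles up. Vldlr and Lrp1 bind apolipoprotein E among other ligands, Vldlr is also a receptor for reelin, and Lrp1 also clears proteases and their inhibitors from the cell surface. Apolipoprotein D is a small carrier of the lipocalin family that is known for expression in glia and in resting fibroblasts.

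Values are array intensities in linear units, a level that can be set against other arrays for the same probe set but not against other probe sets. Values up to a floor, 141 on design a and 198 on design b, could not be told from noise and were set to it before log2 was taken. To be tested, a probe set had to exceed the floor on 2 or more of its 16 arrays. Of the 10 probe sets 4 passed, 1 each for Vldlr, Pltp and Lpl on design a and for Lrp1 on design b, and the other 6 were never above the floor. The 4 that passed include 1, Lpl, that was at the floor on 7 of its 16 arrays.

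The bases just upstream of the annotated start of the 3 genes that were higher at 39 °C are shown because these genes differed in the same direction from day 0. They come from RefSeq on the build GRCm38.p6 and run 5′ to 3′ on the strand of the gene. Capitals mark the motifs found among those searched on both strands. The windows are chr19:27216234-27216479 on the plus strand for Vldlr, chr2:164857709-164857958 on the minus strand for Pltp and chr10:127621149-127621398 on the minus strand for Lrp1.
Vldlr: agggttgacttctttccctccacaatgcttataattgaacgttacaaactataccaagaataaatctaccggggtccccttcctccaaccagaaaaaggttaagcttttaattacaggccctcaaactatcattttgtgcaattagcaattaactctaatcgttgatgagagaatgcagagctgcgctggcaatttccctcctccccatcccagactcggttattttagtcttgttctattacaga
Pltp: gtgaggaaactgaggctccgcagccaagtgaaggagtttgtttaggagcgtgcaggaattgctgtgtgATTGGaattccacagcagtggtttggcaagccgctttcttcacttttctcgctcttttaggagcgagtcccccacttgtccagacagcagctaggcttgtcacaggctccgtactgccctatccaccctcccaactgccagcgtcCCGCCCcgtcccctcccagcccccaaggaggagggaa
Lrp1: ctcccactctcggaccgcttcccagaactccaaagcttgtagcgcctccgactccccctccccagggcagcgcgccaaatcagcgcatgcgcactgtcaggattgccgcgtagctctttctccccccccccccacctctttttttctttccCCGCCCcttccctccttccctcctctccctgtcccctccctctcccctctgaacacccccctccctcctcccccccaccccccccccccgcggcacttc
The motifs were the TATA box TATAAA, the CCAAT box CCAAT, the GC box GGGCGG, the E-box CACGTG, the AP-1 site TGANTCA and the nuclear receptor half-site AGGTCA, the last also as a pair of half-sites 4 bases or 1 base apart. The Pltp window held a CCAAT box and a GC box, both read on the opposite strand, and the Lrp1 window held a GC box. The GC box is a common motif, present in 32.7% of 32851 RefSeq promoter windows of 250 bases, and the CCAAT box was in 33.8%. None of the motifs was found in the Vldlr window, which says only that these letters are not in it. Another RefSeq entry of Vldlr gave no bases here, so nothing was searched for it. The 3 windows differed in base composition, with a GC content of 41.1% for Vldlr, 57.6% for Pltp and 67.2% for Lrp1, against a median of 52.4% over all windows. A match is a description of the sequence and not a site of binding. Of the other members, Apod has a window without any of the motifs, the Apoe windows lie inside the annotated gene, and Lpl has no entry.

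The very low density lipoprotein receptor Vldlr was at the floor or just above it at day 0 and well above it from day 3 on. In experiment A its intensity was 142 at day 0, 150 at day 1, 202 at day 2, 896 at day 3, 903 at day 4, 493 at day 5, 875 at day 6, 1178 at day 7, 955 at day 8, 1316 at day 9, 1790 at day 11 and 1640 at day 14. In experiment B it was 131 at day 0, 311 at day 2, 763 at day 4 and 1115 at day 9. Every array from day 3 on was higher than both day 0 arrays and than all arrays of days 1 and 2, and day 5 of experiment A was the lowest among them.

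By phase, mean Vldlr intensity was 136.5 ± 7.78 (SD, n = 2) at day 0, 389.75 ± 344 (n = 4) early, 842 ± 248 (n = 5) in the middle days and 1363 ± 350 (n = 5) late. The early phase held both low values, at days 1 and 2, and a high one, at day 3. On the log2 scale Vldlr was higher than at day 0 by 1.10 ± 0.52 (SE) early, by 2.52 ± 0.50 in the middle days, which is 5.73-fold, and by 3.23 ± 0.50 late, which is 9.38-fold. These folds are low estimates, since 1 of 2 day 0 arrays was at the floor. A second Vldlr probe set on design a, of another sequence, ranged from -54 to 73 and was never above the floor, so the course of Vldlr rests on 1 probe set, whose name marks it as one that several transcripts may share. The tested probe sets of Pltp, Lrp1 and Lpl carry the same mark, and Pltp and Lrp1 had no other probe set.

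The LDL receptor related protein 1, Lrp1, a large endocytic receptor, was above the floor on all 16 arrays of design b. In experiment A its intensity was 455 at day 0, 769 at day 1, 957 at day 2, 1262 at day 3, 1326 at day 4, 1510 at day 5, 1345 at day 6, 939 at day 7, 1235 at day 8, 1314 at day 9, 953 at day 11 and 1872 at day 14. In experiment B it was 519 at day 0, 674 at day 2, 961 at day 4 and 1132 at day 9. All 14 arrays at 39 °C were above both day 0 arrays, and the early, middle and late ranges overlapped one another.

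Mean Lrp1 intensity was 487 ± 45.3 (SD, n = 2) at day 0, 915.5 ± 259 (n = 4) early, 1216 ± 253 (n = 5) in the middle days and 1301 ± 346 (n = 5) late. Its log2 difference from day 0 was 0.87 ± 0.34 (SE) early, 1.30 ± 0.33 in the middle days and 1.38 ± 0.33 late, the last being 2.61-fold. Lrp1 thus had a level at day 0 to be compared with, unlike Vldlr and Pltp.

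Phospholipid transfer protein, Pltp, was at the floor on both day 0 arrays and above it on every later array. In experiment A its intensity was 120 at day 0, 375 at day 1, 497 at day 2, 1362 at day 3, 1449 at day 4, 1386 at day 5, 1360 at day 6, 1342 at day 7, 1141 at day 8, 1277 at day 9, 1400 at day 11 and 1000 at day 14. In experiment B it was 54 at day 0, 899 at day 2, 843 at day 4 and 722 at day 9. From day 3 on, experiment A stayed between 1000 and 1449, and the 3 later arrays of experiment B were all below that range.

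Mean Pltp intensity was 87 ± 46.7 (SD, n = 2) at day 0, 783 ± 446 (n = 4) early, 1276 ± 245 (n = 5) in the middle days and 1108 ± 262 (n = 5) late. With both day 0 arrays set to the floor, Pltp was at least 4.90-fold higher early (log2 2.29 ± 0.42, SE), at least 8.89-fold higher in the middle days (3.15 ± 0.40) and at least 7.66-fold higher late (2.94 ± 0.40). Both day 0 values are then the same number, so the standard errors of these differences may be too small. Late, Pltp and Vldlr cannot be ranked by their difference from day 0, since Pltp gives only a bound: with a lower floor Pltp stood at 3.62 and Vldlr at 3.28, and on an arcsinh scale at 3.12 and 3.00.

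**Figure D1:**
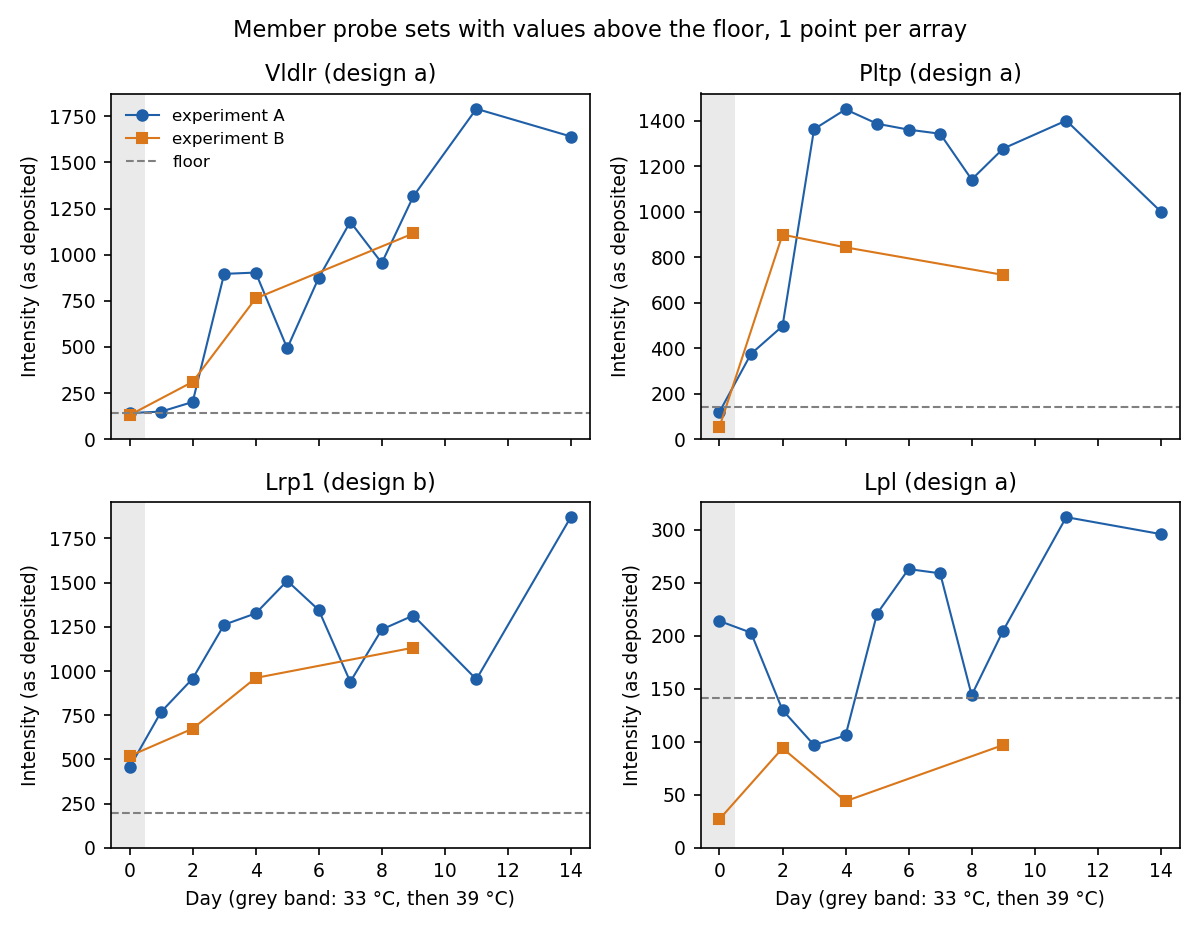
Intensity (linear, vertical axis) of the 4 tested probe sets by day (horizontal axis) in experiments A and B, 1 array per point, with the floor as a dashed line. Vldlr, Pltp and Lrp1 lie higher at 39 °C than at day 0 in both experiments, with Vldlr between 142 and 1790 and Pltp between 120 and 1449 in experiment A, while the 4 Lpl arrays of experiment B stay below the floor of 141.

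Lipoprotein lipase, Lpl, the enzyme that hydrolyses the triglycerides of circulating particles, was near the floor throughout. In experiment A its intensity was 214 at day 0, 203 at day 1, 130 at day 2, 97 at day 3, 106 at day 4, 221 at day 5, 263 at day 6, 259 at day 7, 144 at day 8, 205 at day 9, 312 at day 11 and 296 at day 14. In experiment B it was 27 at day 0, 94 at day 2, 44 at day 4 and 97 at day 9, all below the floor. Lpl was above the floor on 9 of 16 arrays, all of experiment A, with a low stretch from day 2 to day 4 and its highest values at days 11 and 14. The arrays of days 11 and 14 had the highest noise levels of design a, 204 and 197. Those of days 3 and 4 were at 124.5 and 104, though day 2, also low for Lpl, was at 191. The part of noise in this course was not tested.

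Mean Lpl intensity was 120.5 ± 132 (SD, n = 2) at day 0, 131 ± 50.7 (n = 4) early, 179 ± 98.5 (n = 5) in the middle days and 211 ± 93.5 (n = 5) late, and all phases overlapped. Its log2 differences from day 0, -0.17 ± 0.38 (SE) early, 0.18 ± 0.37 in the middle days and 0.26 ± 0.37 late, were each smaller than their standard error. Those signs rest on the 2 day 0 arrays: without day 0 of experiment A the early difference was 0.13, and without day 0 of experiment B the middle and late differences were -0.12 and -0.045. A second Lpl probe set on design a ranged from -216 to 20 and was negative on 14 of 16 arrays.

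Apolipoprotein E, a main ligand of both receptors, was represented by 1 probe set on each design, and both were negative on all 16 arrays, so its level could not be read. On design a the values ran from -2743 to -1141 in experiment A and from -656 to -413 in experiment B. On design b they ran from -3851 to -1553 in experiment A and from -894 to -308 in experiment B. How a negative value arises is not given in the sources used here, and it sets no bound on the amount of Apoe RNA.

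Apolipoprotein D was represented by a pair of probe sets on design b, and neither was above the floor of 198 on any array. The first ranged from -615 to -5 and was negative on all 16 arrays. The second ranged from -72 to 177 and was negative on 4 arrays. The names of all 4 Apoe and Apod probe sets mark them as common to a gene family, and which gene they report is uncertain.

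**Figure D2:**
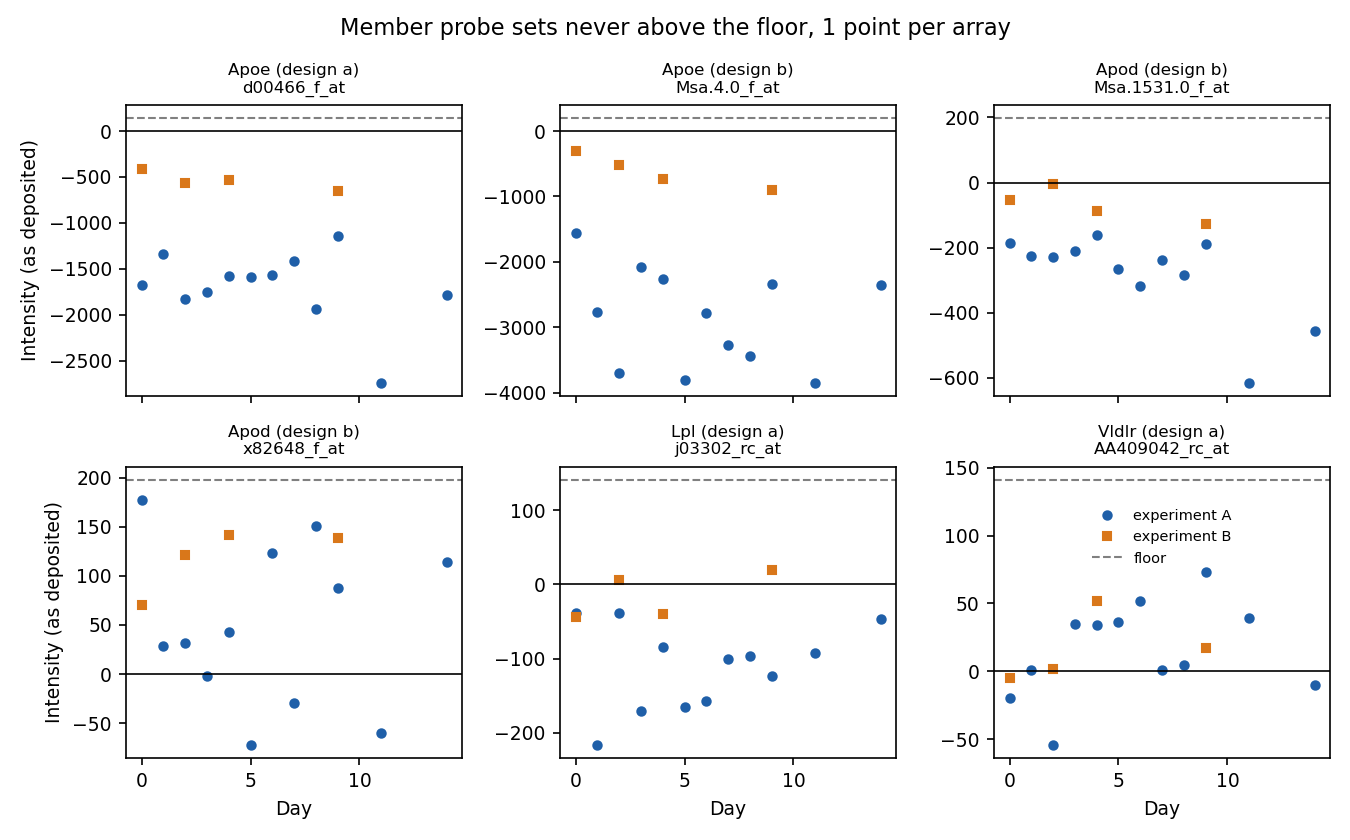
Intensity (linear, vertical axis) of the 6 member probe sets that were never above the floor, by day (horizontal axis), in experiments A and B, 1 array per point, with the floor as a dashed line. Both Apoe probe sets are negative on every array and lower in experiment A, down to -3851 on design b, than in experiment B, where the lowest value on design b is -894.

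The members were chosen by their differences from day 0, so the counts that follow describe the choice, and nothing is read from them. At the threshold used for all probe sets (adjusted p of 0.05), 1 of 4 tested members, Pltp, counted as higher early against day 0 and none as lower, beside 1.45% of the 7726 tested probe sets called higher and 2.05% lower. In the middle days 3 of 4, Vldlr, Pltp and Lrp1, counted as higher and none as lower, beside 3.61% higher and 4.58% lower over all tested. Late, the same 3 genes counted as higher and none as lower, beside 4.84% higher and 6.08% lower. The median log2 difference of the 4 members was 0.99 early, 1.91 in the middle days and 2.16 late, and over all tested probe sets it was 0.05, 0.08 and 0.11. On an arcsinh scale the calls over all probe sets split as 113 higher and 62 lower early, 334 and 268 in the middle days and 429 and 389 late, where the log2 scale gave 112 and 158, 279 and 354, and 374 and 470.

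Which members counted depended on few arrays. Lrp1 fell short of the threshold in the middle days and late without day 0 of experiment A (1.20 ± 0.44 and 1.29 ± 0.44 on the log2 scale, SE) or without day 0 of experiment B (1.39 ± 0.44 and 1.48 ± 0.44). In experiment A alone, where day 0 is 1 array, Vldlr (2.54 ± 0.76) and Lrp1 (1.47 ± 0.40) in the middle days and Pltp early (2.17 ± 0.53) fell short while their sizes stayed close. With a higher floor Pltp early also fell short, at 1.35 ± 0.41.

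**Figure D3:**
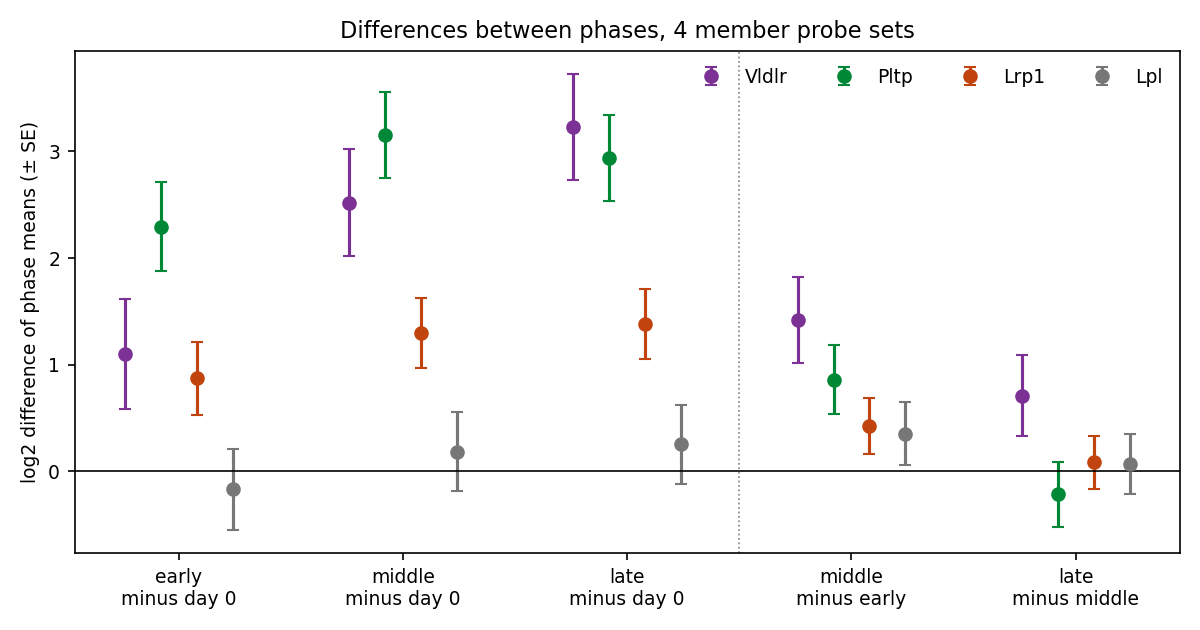
Log2 difference (axis in log2 units, points with bars of 1 SE) of the 4 tested member probe sets in each comparison of phases. Vldlr, Pltp and Lrp1 lie above 0 in all 3 comparisons with day 0, up to 3.23 for Vldlr late. With both day 0 arrays at the floor, Pltp could not lie below 0 there. The differences between neighbouring phases at 39 °C run from 1.42 for Vldlr to -0.21 for Pltp. For Vldlr the step from early to middle days, 1.42, is larger than its early difference from day 0, 1.10.

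Within the constant temperature of 39 °C, the question was whether the genes went on changing after the first days. The early, middle and late arrays also entered the differences by which the genes were chosen. The comparisons between these phases are therefore not independent of the choice. From early to middle days Vldlr was higher by 1.42 ± 0.40 (log2, SE; 2.67-fold), Pltp by 0.86 ± 0.32 (1.81-fold), Lrp1 by 0.43 ± 0.26 (1.34-fold) and Lpl by 0.35 ± 0.30. None passed the test, with limma adjusted p of 0.44 for Vldlr, 0.797 for Pltp and 1 for Lrp1 and for Lpl. No tested probe set passed in either direction by limma (0 of 7726, 0.0% higher and 0.0% lower). Before adjustment, 382 of them, 4.94%, were under 0.05, Vldlr and Pltp included. That is about the share which a cut at 0.05 gives where nothing differs. The Vldlr comparison turned on 1 culture, day 3 of experiment A, whose 896 was the only early value near the middle days. Without that culture Vldlr was higher in the middle days by 1.94 ± 0.32. This fit drops the early array most opposed to the difference, so no test is read from it.

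From middle to late days Vldlr differed by 0.71 ± 0.38 (log2, SE; 1.64-fold), Lpl by 0.07 ± 0.28, Lrp1 by 0.09 ± 0.25 and Pltp by -0.21 ± 0.30. None passed, with a limma adjusted p of 1 for all 4. Over all probe sets 0 of 7726 passed by limma (0.0% in either direction), and 289, 3.74%, were under 0.05 before adjustment. In experiment A Vldlr and Lpl had their highest values at days 11 and 14, Pltp at days 4 and 11 and Lrp1 at days 5 and 14. Between early and late days, given as values, Vldlr was higher by 2.13 ± 0.40, Pltp by 0.64 ± 0.32, Lrp1 by 0.51 ± 0.26 and Lpl by 0.43 ± 0.30.

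Day by day in experiment A, the largest single step of Vldlr lay between days 2 and 3, from 202 to 896, a 4.44-fold step between 2 arrays with no replicate of either day in that experiment. Pltp had a step of 2.74-fold there and one of at least 2.66-fold between days 0 and 1. Between days 2 and 3, 5.52% of the 4294 tested probe sets of design a were higher by over 1 log2 unit and 9.85% lower. Lrp1 had steps of 1.69-fold between days 0 and 1 and of 1.32-fold between days 2 and 3, on arrays of the other design. Its largest step at 39 °C was the last, 1.96-fold between days 11 and 14, where 5.62% of the 3432 tested probe sets of design b were higher by over 1 log2 unit and 11.5% lower. That step started from 953 at day 11, on the array with the highest noise level of design b (325).

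The 3 matched days of the 2 experiments gave the same direction for the 3 genes, each day against day 0 of its own experiment. The genes were chosen by differences from these same day 0 arrays, and the 3 days of an experiment share 1 day 0 array. The shared direction is thus a description and not a replication. Vldlr was higher by 0.51 log2 units in experiment A and 1.14 in experiment B at day 2, by 2.67 and 2.44 at day 4, and by 3.21 and 2.98 at day 9. Pltp was higher by 1.82 and 2.67 at day 2, by 3.36 and 2.58 at day 4, and by 3.18 and 2.36 at day 9. Lrp1 was higher by 1.07 and 0.38 at day 2, by 1.54 and 0.89 at day 4, and by 1.53 and 1.13 at day 9. The Pltp differences in both experiments and those of Vldlr in experiment B are taken from a day 0 at the floor and are low estimates. Pltp in experiment B was at its highest at day 2, while in experiment A it was higher at days 4 and 9 than at day 2. Lpl differed by -0.60, -0.60 and -0.06 in experiment A and was at the floor on all 4 arrays of experiment B.

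**Figure D4:**
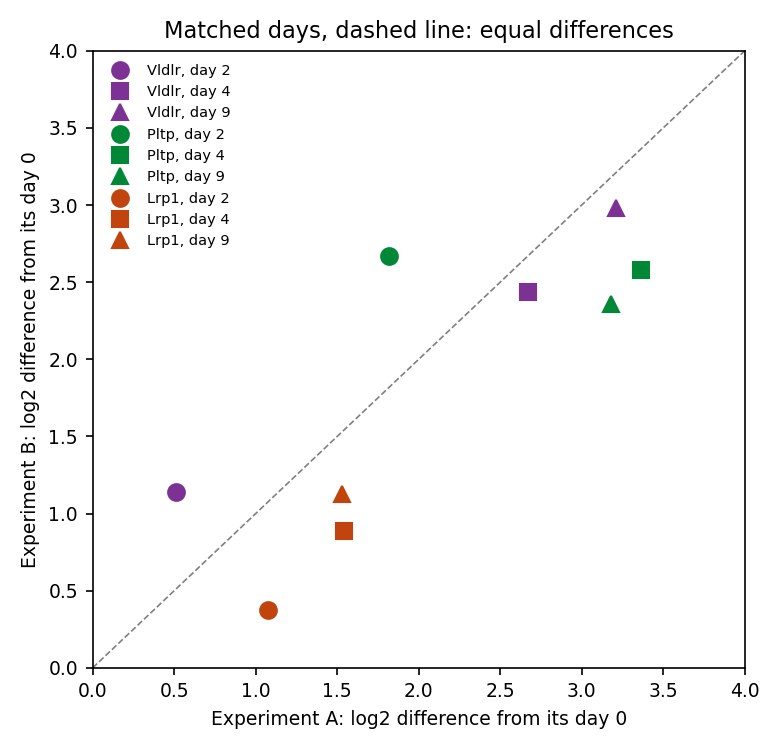
Log2 difference from day 0 of the same experiment, in experiment A (horizontal axis) against experiment B (vertical axis), for Vldlr, Pltp and Lrp1 (colours) at days 2, 4 and 9 (circles, squares and triangles), 1 array per day and experiment, so without error bars, and with a dashed line where both are equal. All 9 points lie above 0 in both experiments, with Vldlr at day 9 at 3.21 in experiment A and 2.98 in experiment B. With day 0 at the floor, Pltp in both experiments and Vldlr in experiment B could not lie below 0. Vldlr in experiment A, with day 0 just above the floor, hardly could. The Pltp points are low estimates whose side of the line is not read.

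The 2 experiments were not alike in quality, and this bears on all members. The noise level of the arrays (75th percentile of the absolute size of their negative values) was 103 to 204 in experiment A and 68 to 160 in experiment B on design a, and 153 to 325 and 75 to 160 on design b. The ratio of the 3' to the 5' control probe set of Gapdh was 1.05 to 2.65 in experiment A and 0.759 to 0.857 in experiment B on design a, and 0.994 to 2.56 and 0.795 to 0.889 on design b. With the noise level as a covariate, the late difference from day 0 was 3.24 for Vldlr, 2.96 for Pltp and 1.32 for Lrp1. The part of the Gapdh ratio in the differences was not tested. Days 3 and 4 of experiment A were among the closest pairs of arrays of each design (second of 120 pairs on design a and first on design b), and they gave close values for Vldlr (896 and 903) and Pltp (1362 and 1449).

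The probe sets whose courses lay nearest to those of the members were found from the root mean square (RMS) difference of the mean-centred log2 values over 16 arrays of the same design. For Vldlr, whose own RMS deviation was 1.26, these were Gstm1, a glutathione S-transferase (0.42), Ogn, a small proteoglycan of the extracellular matrix (0.46), and Ermp1, a peptidase of the endoplasmic reticulum (0.48), among 3753 probe sets. For Pltp (1.08) they were Nmt1, an N-myristoyltransferase (0.43), Tmem59, a transmembrane protein (0.45), and Ube2h, a ubiquitin-conjugating enzyme (0.45). For Lrp1 (0.54) they were Nfkbia, an inhibitor of NF-kappa-B (0.19), Psap, the precursor of the saposins (0.29), and Nnt, a mitochondrial transhydrogenase (0.30), among 1192, the Psap probe set being one shared by a gene family. None of the 9 is among the lipid transport genes listed here.

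Other genes of lipid handling were followed in 8 lists with 58 tested probe sets. The lists were made with earlier results of these data known. The adjusted p-values of their genes, given below, are therefore a description and not independent tests. Early 2 were called higher (3.45%) and 1 lower (1.72%), in the middle days 3 (5.17%) and 1 (1.72%), and late 4 (6.9%) and 2 (3.45%), where the shares over all tested probe sets were 1.45% and 2.05%, 3.61% and 4.58%, and 4.84% and 6.08%. Of the LDL receptor family and its adaptors, 6 probe sets of Dab2, Lrp10, Lrp6, Lrpap1 and Snx17 were tested and 0 were called in any comparison with day 0 by limma, with a median log2 difference of 0.60 late. Of the apolipoproteins 7 were tested, and Clu (clusterin, or apolipoprotein J) rose, by 1.92 ± 0.37 (log2, SE) in the middle days (3.79-fold, limma adjusted p = 0.00211) and 1.83 ± 0.37 late (adjusted p = 0.00263). Clu was no longer called without day 0 of experiment B, at an adjusted p of 0.116 in the middle days and 0.137 late, or in experiment A alone, at 0.0933 and 0.129. Lipases and their regulators (3 tested), lipid-sensing transcription factors (4), lipocalins and retinol binding proteins (5) and cholesterol synthesis enzymes (8) gave no call in these comparisons, with late medians of 0.77, 0.49, -0.03 and -0.08. Between early, middle and late days 0 probe sets of any of the 8 lists passed.

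Among scavenger receptors and sterol transport proteins, 1 of 10 probe sets passed, that of Scp2, sterol carrier protein 2. It rose by 1.23 ± 0.32 (log2, SE) early (limma adjusted p = 0.0373), by 1.76 ± 0.31 in the middle days (0.0011) and by 1.79 ± 0.31 late (0.00088). Its early call ended in 12 of 28 alternatives, with adjusted p between 0.0504 and 0.175 when day 0, 2, 3, 4, 5 or 14 of experiment A or day 0 or 2 of experiment B was left out. The list's median was 0.78 late.

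Of 15 tested probe sets of fatty acid genes 2 were called higher late and 2 lower, and 11 did not pass, with a median of 0.48. Cpt1a, the carnitine palmitoyltransferase that admits fatty acids to mitochondrial oxidation, rose by 2.07 ± 0.42 (log2, SE) early (limma adjusted p = 0.00773), 2.66 ± 0.40 in the middle days (0.000341) and 1.91 ± 0.40 late (0.00405). Its early call was lost when day 0 of experiment B was left out (adjusted p = 0.0638), with a higher floor (0.0932) and in experiment A alone (0.0998), and its late call with a higher floor (0.0763) and in experiment A alone (0.0728). Fabp5, a fatty acid binding protein measured by a probe set shared by a gene family, fell, with differences of -1.80 ± 0.43 early (0.0212), -1.96 ± 0.41 in the middle days (0.00473) and -2.08 ± 0.41 late (0.00251). Without day 0 of experiment B all 3 Fabp5 calls ended (adjusted p = 0.254, 0.102 and 0.0639), and the early one also without day 0, 2 or 3 of experiment A (0.0535, 0.0663 and 0.0528) or in experiment A alone (0.0508).

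Late, the fatty acid transporter Slc27a1 rose by 1.27 ± 0.35 (limma adjusted p = 0.0226), on 1 of its 2 tested probe sets, which was above the floor on 1 of 2 day 0 arrays. The dehydrogenase Acadl fell, from 304 and 356 at day 0 to between 76 and 189 late, where 3 of 5 arrays were at the floor, so its difference of -1.07 ± 0.32 (adjusted p = 0.0364) is a low estimate. The Slc27a1 call was lost when day 0 of experiment A or of experiment B was left out (adjusted p = 0.0907 and 0.182), with quantile normalization (0.0522), in experiment A alone (0.171) and with a higher floor, which moved the difference to 0.37 (0.105). The Acadl call ended in 12 of 28 alternatives, with adjusted p of 0.0501 to 0.17 when day 0 of experiment B or day 0, 5, 7, 8, 9 or 11 of experiment A was left out, and its difference ran from -1.44 with a lower floor to -0.28 with a higher one.

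Markers of cell types were summed per array to see what moved with the members. Such a sum is ruled by its brightest probe sets, so it describes the arrays and not each marker. Of 9 hair cell and otic markers 6 had a probe set and 5 (Calb2, Gata3, Myo6, Myo7a and Pax2) were above the floor, while the hair cell factor Atoh1 never was. Their summed intensity ran from 992 to 1876 at day 0 and from 2292 to 2918 late. Of 7 tested probe sets of this list 1, that of Gata3, was called higher late, and the median log2 difference was 0.41. Over all 7726 tested probe sets 4.84% were called higher late and 6.08% lower, with a median of 0.11. The marker lists are too short for their counts of calls to be set apart from these shares. For fibroblasts, which are known to express Lrp1, 5 of 8 markers were above the floor on some array, with sums of 2005 to 2695 at day 0, 2462 to 8884 early, 4543 to 19754 in the middle days and 6793 to 25073 late, and with Col1a2, Lum and Thy1 never above it. Most of that sum was 1 gene, the proteoglycan decorin (Dcn), at 61 and 89 at day 0 and 5146 to 22560 late. Late, 1 of 6 tested fibroblast probe sets, that of Dcn, was called higher, the list's median was 0.37, and S100a4 was at 1564 and 1622 at day 0 and 620 to 1037 late. The 7 of 12 macrophage markers above the floor on some array summed to 1920 to 6749 at day 0 and 4471 to 15026 late, and Adgre1 and Csf1r never passed the floor. The brightest of them was Lyz2, with a mean of 2112 at day 0 and 5292 late. Late, 0 of 8 tested macrophage probe sets were called higher and 0 lower, with a median log2 difference of 0.32. The 3 of 8 adipocyte markers went from 509 to 999 at day 0 to 777 to 1722 late, with Fabp4, Pparg and Slc2a4 never above the floor, and the 4 of 6 glial markers from 753 to 1030 to 791 to 1468. No call was made late among the 3 tested adipocyte and 5 tested glial probe sets, with medians of 0.08 and 0.20. The part of these genes in the member differences was not tested, and in bulk RNA more cells of a type and more RNA per cell cannot be told apart.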

How the data were processed

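Total RNA of UB/OC-1 cultures was measured on array designs a (6584 probe sets) and b (6595), 16 arrays each. The deposited values are intensities on a linear scale, and negative values make up 22.9% of design a and 33.0% of design b. Their trimmed mean (2% left out at each end), computed here, lay at 300.4 to 300.8 on every array. Not given in the sources used here are the software, the background method and any scaling. Values were used as deposited, and no column of values was left unused. The 61 controls per design were left out of the tests.

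Symbols came from the platform annotation, which names 1 gene for 5541 probe sets of design a and 2001 of design b, several for 197 and 27 and none for 785 and 4506. RefSeq was used for promoter sequence, and 5 of the 6 members matched an entry. Names ending in f_at mark probe sets shared by a gene family, and s_at those that several transcripts may share.

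As the floor of a design (141 and 198) served the 75th percentile of its negative values, taken by absolute size, and log2 was taken of the larger of value and floor. Phase means were fitted per design with limma 3.58.1 in R 4.3.3 (lmFit, eBayes with trend and robust, 12 residual degrees of freedom), two-sided, with Benjamini-Hochberg adjustment over the 7726 tested probe sets of both designs (4294 and 3432) and a threshold of 0.05. The samples of a phase are different days, and any change from day to day adds to their spread. Nothing in the labels says that cultures of an experiment were started separately, so the p-values cover the spread between these samples alone, which may be technical.

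The labels share an experiment between days. On each matched day the difference of experiment A from B was taken per probe set, and these differences correlated for all 6 pairs of days of each design (r of 0.27 to 0.73), so experiment pairs the samples, and it was tried as a block.

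The genes and lists were chosen with earlier results of these data known. Named from a list were up to 4 probe sets with 1 symbol and the largest difference among those that passed. For likeness, the 3 nearest were named for each member whose phase means differed by over 1 log2 unit. A noise covariate was added after seeing the data. The precision is limited by the number of arrays.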

Additional observations from a re-analysis of the deposited data

Results flagged for a closer look

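In 12 groups of 4 or 5 arrays (the 4 tested member probe sets in the early, middle and late days), the highest and the lowest array were set against the others of the group, a check that chance meets in about 1 group in 20. It was met by 2. Lpl at day 1 of experiment A (log2 7.67, intensity 203) stood above the other 3 early arrays, which were all at the floor. With 3 arrays set to 1 value, any array above the floor meets the check, and the rate of 1 in 20 does not hold for it. Pltp at day 4 of experiment B (log2 9.72, intensity 843) stood below the other 4 middle arrays, which were all of experiment A.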

How the results depend on the processing

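The 28 alternatives were 12 other settings and 16 fits that left out 1 culture. Early against day 0, 270 probe sets were called (112 higher, 158 lower), against 175 on an arcsinh scale (113 higher, 62 lower), 469 with the replicate block by experiment, 173 in experiment A alone (43 higher, 130 lower), 172 with early as days 1 and 2, 451 with the noise covariate, and 126 (without day 0 of experiment B) to 338 with 1 culture left out, 172 of them without day 3 of experiment A. The split early was 121 higher and 98 lower with a lower floor, 87 and 210 with a higher floor, and 113 and 95 with a filter on 8 arrays. In the middle days 633 were called, 959 with the block, and 321 (without day 0 of experiment B) to 717 with 1 culture left out. Late 844 were called, 555 in experiment A alone, and 402 (without day 0 of experiment B) to 929. From early to middle days 0 were called, against 2 with a lower floor, 3 with the block, 26 with early as days 1 and 2, 7 with the noise covariate, 3 with eBayes without trend and robust, and 0 to 26 (without day 3 of experiment A) with 1 culture left out. From middle to late days 0 were called, against 4 with the block, 2 in experiment A alone and 0 to 3 (without day 9 of experiment B).

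The block changed no member call. Over all alternatives the late difference from day 0 stayed between 2.29 and 3.35 for Vldlr, 2.00 and 3.62 for Pltp and 1.21 and 1.52 for Lrp1 (log2). The values that changed sign were within their standard error of 0. For Lpl these were early against day 0, 0.090 with a lower floor, 0.17 on an arcsinh scale and -0.47 to 0.13 with 1 culture left out; middle against day 0, -0.12 to 0.48, and late against day 0, -0.045 to 0.56, with 1 culture left out; and late against middle, -0.067 with the noise covariate and -0.075 to 0.21 with 1 culture left out. Lrp1 late against middle ran from -0.054 to 0.19 with 1 culture left out. The cause was not tested. Values at the floor limit what can be said of Lpl, Apoe and Apod.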

Other observations

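The Apoe probe set of design a had the lowest median of the 6523 probe sets of that design that are not controls, and held its lowest value, -2743. The Apoe probe set of design b had the second lowest median of 6534, where the lowest value of all was -4157. Probe sets that were negative on all 16 arrays numbered 365 (5.6%) on design a and 678 (10.4%) on design b. Both Apoe probe sets were lower on every array of experiment A than on any of experiment B.

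Days 3 and 4 of experiment A differed by over 1 log2 unit in 2.26% of the tested probe sets on design a and 1.52% on design b. Days 2 and 4 of experiment B were as close (2.07% and 2.3%), and the farthest pair, day 0 of experiment B and day 11 of experiment A, differed in 40.8% and 44.6%. Few values were the same on both arrays of days 3 and 4 (51 on each design).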
